A study of Mus musculus with 16 samples.

Results

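*Hcrt*, which encodes the orexin (hypocretin) precursor, and *Pmch*, which encodes the precursor of melanin-concentrating hormone (MCH), were looked up by symbol in all 16 Drop-seq libraries of the mouse hypothalamus and preoptic area (hypothalamus-POA), and are 2 of the 28683 genes listed. Drop-seq captures single cells with barcoded beads in droplets and counts transcripts as unique molecular identifiers (UMIs). Each library came from 1 female mouse of a CD-1;129P2 mixed background, 8 to 10 weeks old at the start, given 28 daily subcutaneous injections of tamoxifen at 0.1 mg/kg or of oil. All mice came from a line with a floxed *Esr1* allele, the gene of estrogen receptor alpha. The Esr1cKO mice also carried an *Nkx2-1*-Cre transgene, so that deletion was limited to cells with a history of *Nkx2-1* activity, and the wild-type mice were Cre-negative littermates. Oil was given to 3 wild-type and 4 Esr1cKO mice, and tamoxifen to 5 wild-type and 4 Esr1cKO mice. The study compared tamoxifen with oil in each genotype.

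Orexin and MCH are peptides made by separate groups of neurons in the lateral hypothalamus, which project widely through the brain. The *Hcrt* precursor is cut into 2 peptides, orexin-A and orexin-B, which act on the receptors encoded by *Hcrtr1* and *Hcrtr2* and are known for keeping animals awake. MCH acts in mice through the receptor encoded by *Mchr1* and is known for roles in feeding and sleep. Orexin neurons are glutamatergic and also make dynorphin from *Pdyn*, and many MCH neurons make the peptide encoded by *Cartpt*. Both groups are small, so that a dissected block holds few of these cells and each of them holds many copies of 1 transcript.

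*Hcrt* lies on the minus strand of chromosome 11 at chr11:100761069-100762931 and spans 1863 bases (GENCODE vM21, GRCm38, used here for positions only). *Pmch* lies on the plus strand of chromosome 10 at chr10:88091072-88092375 and spans 1304 bases with 3 exons. *Parpbp*, a gene of the minus strand at chr10:88091432-88146941, overlaps 944 bases, 72.4% of *Pmch*. Whether the counting used strand is not given in the sources used here, so that reads of *Pmch* and *Parpbp* cannot be told apart where they overlap.

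The 146538 deposited barcodes included 55675 kept cells, defined as barcodes above 200 genes and below 4000, with a mitochondrial share of UMIs below 15%. Libraries held 1746 to 5568 kept cells, with 243 to 904 neurons each and 9143 neurons in all. In a principal component analysis, wild-type oil replicate 3 and Esr1cKO tamoxifen replicate 3 stood apart from the other 14 libraries on the component that took most variance (58.7%). Their scores were 96.7 and 93.9, against -31.4 to -5.74 in the others, and their listed barcodes began at 100 genes where the others began at 20. *Esr1*, the targeted gene, averaged 60.1 ± 23.1 and 48.7 ± 7.65 UMIs per 1000000 UMIs (CPM; SD) in neurons of oil-treated wild-type (n = 3) and Esr1cKO mice (n = 4), and 66.1 ± 7.85 and 52.9 ± 26.3 CPM under tamoxifen (n = 5 and 4). The edgeR adjusted p of these genotype differences was 0.999 and 1.0, and since 3′ tags need not cover the deleted part this checks nothing.

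Cell barcodes of 12 bases were shared between libraries. Of 142084 sequences, 2832 were listed in more than 1 library and 609 in 4 or more, and 3088 kept cells carried a shared one. By this sharing the libraries were put into 4 sets of 4. The sets were not cleanly apart, since wild-type oil replicate 2 shared 81 to 167 sequences with the libraries of its own set and 67 to 191 with those of another. That other set held wild-type tamoxifen replicates 4 and 5, Esr1cKO oil replicate 4 and Esr1cKO tamoxifen replicate 4, which shared most with each other, 624 to 873 sequences for each pair. A rule on shared barcodes used such a barcode only where it held at least 10 times the UMIs it had in every other library. The *Hcrt* levels per library, the fits, the permutation tests and the correlations were computed again under this rule. Levels by depth class, by cell type, by neuron cluster and summed over rich neurons were not.

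The barcodes with most *Hcrt* illustrate this, and their sequences are shown because they hold much of the *Hcrt* outside kept cells and tie low-gene barcodes to them. In Esr1cKO tamoxifen replicate 3, a barcode with 30189 UMIs held 5253 of *Hcrt*. The 4 barcodes of the same library that differed from it at 1 base and held *Hcrt* had 59, 54, 47 and 42 *Hcrt* UMIs, and capitals mark the differing base.
Parent barcode, 5253 *Hcrt* UMIs: tggtttaggtca
Neighbour with 59 *Hcrt* UMIs: tAgtttaggtca
Neighbour with 54 *Hcrt* UMIs: tgAtttaggtca
Neighbour with 47 *Hcrt* UMIs: tggtttaAgtca
Neighbour with 42 *Hcrt* UMIs: tggtttagAtca

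*Hcrt* made up 17.4% of the parent's UMIs and 17.1% to 20.6% of those of its neighbours. The parent sequence was also listed in wild-type tamoxifen replicate 1, with 16 *Hcrt* UMIs of 295, and in wild-type oil replicate 2, with 18 of 213. A second such barcode, in Esr1cKO oil replicate 1, held 4753 *Hcrt* UMIs of 25839 and had 10 neighbours at 1 base, all with *Hcrt*, which held 160 *Hcrt* UMIs of 1023. The 3 neighbours with most are shown.
Parent barcode, 4753 *Hcrt* UMIs: atacgaacggca
Neighbour with 24 *Hcrt* UMIs: atacgaacAgca
Neighbour with 23 *Hcrt* UMIs: atacgaacgCca
Neighbour with 20 *Hcrt* UMIs: atacgaacggcC

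The parent sequence of this second family was listed again in wild-type oil replicate 3, wild-type tamoxifen replicate 3 and Esr1cKO tamoxifen replicate 1, with 33, 27 and 15 *Hcrt* UMIs. Another sequence was found at like depth in all 4 libraries of the set that shared most, each time in a kept neuron rich in *Hcrt*.
Barcode of 4 libraries: ggcacgggccct

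That barcode held 324 *Hcrt* UMIs of 1405 in wild-type tamoxifen replicate 4, 249 of 992 in Esr1cKO oil replicate 4, 155 of 750 in Esr1cKO tamoxifen replicate 4 and 221 of 1077 in wild-type tamoxifen replicate 5. The *Hcrt* share of its UMIs ran from 20.5% to 25.1%. These 4 neurons were 4 of the 22 neurons counted below as rich in *Hcrt*, and the rule on shared barcodes left out all 4. No *Pmch* UMI of a barcode with 200 or fewer genes lay in a neighbour at 1 base of a *Pmch*-rich barcode.

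*Hcrt* was counted in few barcodes and mostly in very large ones. The libraries held 20878 *Hcrt* UMIs in all, of which 5388 (25.8%) lay in kept cells. *Pmch* had 2529 UMIs in all, of which 1557 (61.6%) lay in kept cells. Barcodes with 4000 or more genes, which the cell filter removed, held 64.3% of *Hcrt* UMIs and 0.395% of *Pmch* UMIs, beside 8.83% of the UMIs of all genes. Their 13433 *Hcrt* UMIs lay almost wholly in 5 barcodes, which held 13407, and the largest 4 held 5253 in Esr1cKO tamoxifen replicate 3, 4753 in Esr1cKO oil replicate 1, 2066 in Esr1cKO tamoxifen replicate 4 and 1322 in wild-type tamoxifen replicate 3.

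**Figure D1:**
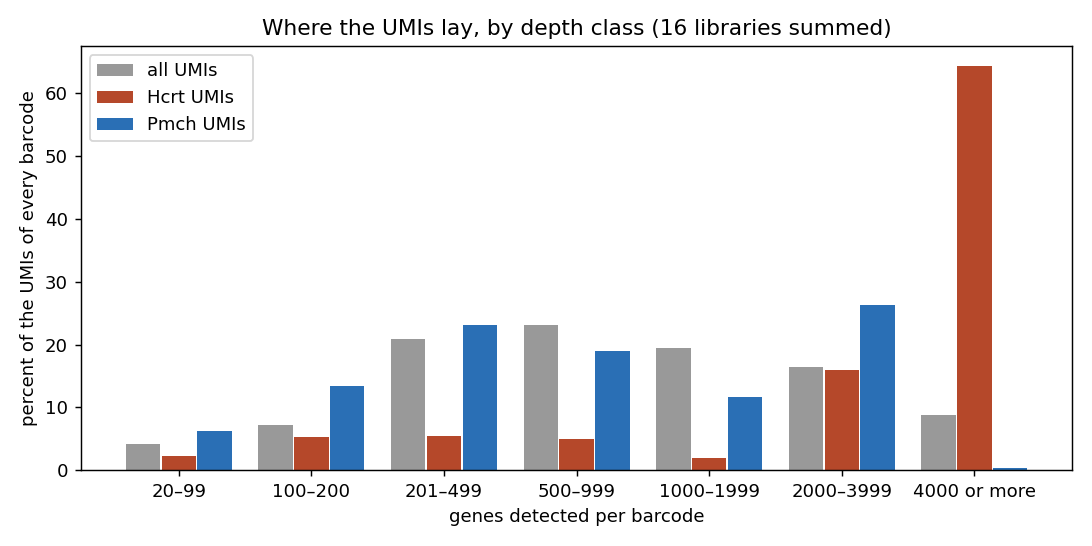
Bars give the percent of UMIs of *Hcrt*, of *Pmch* and of all genes that lay in barcodes of each class of genes per barcode, summed over 16 libraries. *Hcrt* had 64.3% of its UMIs in barcodes with 4000 or more genes, and *Pmch* had its highest share, 26.3%, in barcodes with at least 2000 and under 4000 genes.

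Across the lower depth classes the *Hcrt* share differed less, in percentage points, from that of all genes. Barcodes with at least 2000 and under 4000 genes held 15.9% of *Hcrt* and 26.3% of *Pmch* UMIs, beside 16.4% of all UMIs. Barcodes with over 200 and under 500 genes held 5.43% of *Hcrt*, 23.1% of *Pmch* and 20.8% of all UMIs. Those with 20 to 99 genes held 2.2%, 6.25% and 4.17%.

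Among kept cells, a few neurons held nearly all of both transcripts. *Hcrt* was seen in 519 kept cells, of which 452 had 1 UMI, and the 27 cells with at least 5 UMIs held 90.0% of the *Hcrt* UMIs of kept cells. The richest cell, in wild-type tamoxifen replicate 5, had 1443 *Hcrt* UMIs, 26.8% of the total in kept cells, and the richest 5 held 65.5%. *Pmch* was seen in 193 kept cells, of which 145 had 1 UMI, and the 24 cells with at least 5 UMIs held 86.5%. The richest *Pmch* cell had 421 UMIs (27%), and the richest 5 held 56.4%. A threshold of 5 UMIs is used from here on, and cells that reach it are called *Hcrt*-rich or *Pmch*-rich.

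Of the 27 *Hcrt*-rich kept cells, 22 were neurons, 3 lay in the microglia cluster and 2 in the endothelial cluster. The 22 *Hcrt*-rich neurons had 255 to 9691 UMIs of all genes (median 1241), and *Hcrt* took 0.0626% to 25.1% of their UMIs (median 10.4%). Of the 24 *Pmch*-rich kept cells, 22 were neurons, 1 lay in the astrocyte cluster and 1 in the mural cluster. The 22 *Pmch*-rich neurons had 305 to 5878 UMIs (median 615.5), and *Pmch* took 0.173% to 13.2% of them (median 3.04%). The mural cell, with 82 *Pmch* UMIs, was called a doublet, and no other *Pmch*-rich cell was.

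The 2 transcripts did not meet in 1 barcode at this level. No barcode held 5 or more UMIs of both, and 6 kept cells held at least 1 UMI of each. Over every barcode, kept or not, 104 were *Hcrt*-rich and 53 were *Pmch*-rich. Of the 77 *Hcrt*-rich barcodes that were not kept, 55 had 200 or fewer genes, 5 had 4000 or more and 17 failed the mitochondrial limit. Of the 29 *Pmch*-rich barcodes that were not kept, 18 had 200 or fewer genes and 11 failed the mitochondrial limit.

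**Figure D2:**
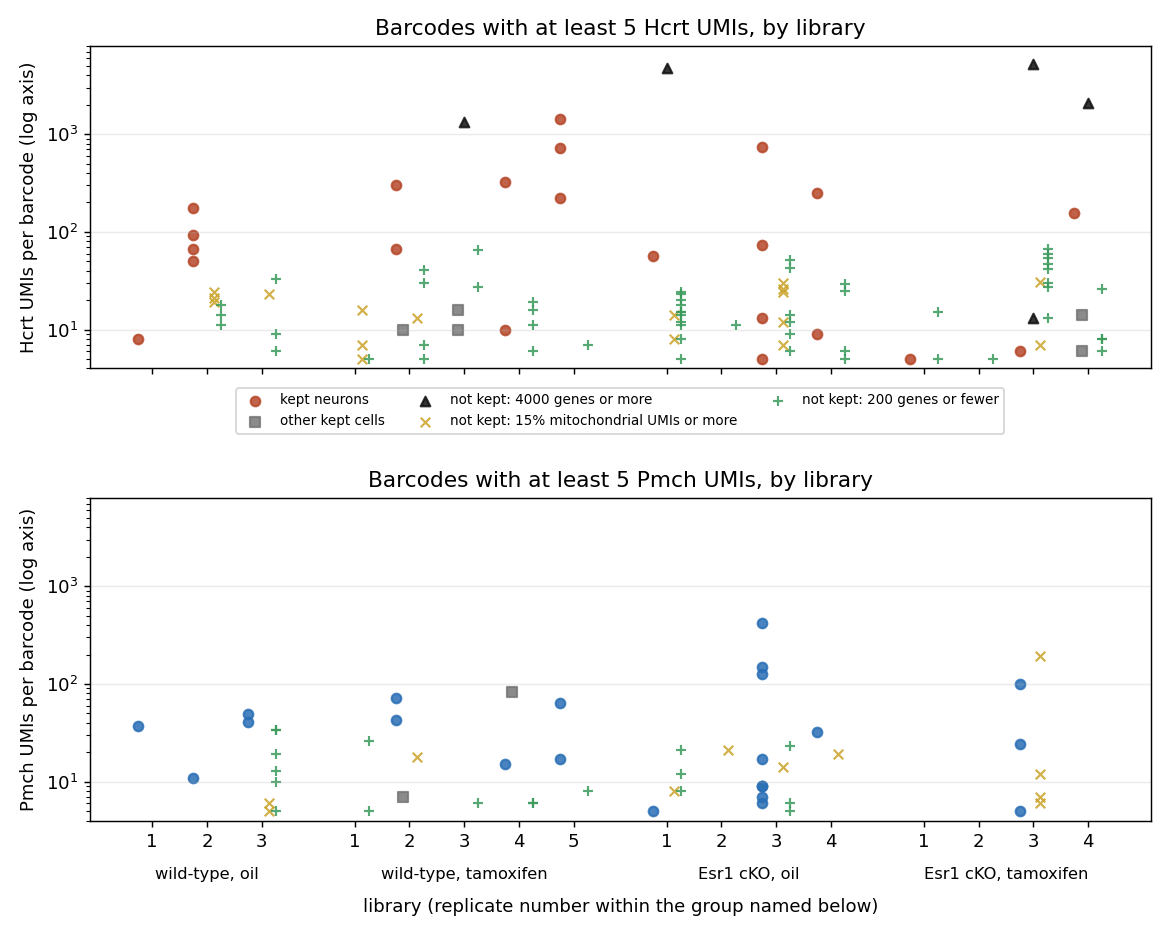
Each marker is 1 barcode with at least 5 UMIs of *Hcrt* or *Pmch*, placed by library on the x axis and by its UMIs of that gene on a logarithmic y axis, and the marker shape gives whether it was a kept neuron, another kept cell or a barcode removed by a filter. The highest *Hcrt* barcodes, at 1322 to 5253 UMIs, include 4 with 4000 or more genes, and the highest *Pmch* barcode had 421 UMIs.

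Barcodes below the cell filter held both transcripts at higher CPM than kept cells did. In barcodes with 100 to 200 genes, *Hcrt* averaged 156 ± 153 CPM (SD, n = 16 libraries), with a median of 116 and a range of 0 to 598, and it was above the level of the kept cells in 14 of 16 libraries. *Pmch* averaged 44.9 ± 46.6 CPM in these barcodes, with a median of 24.6 and a range of 2.66 to 163, and was above its kept level in 10 of 16. In barcodes with 20 to 99 genes, which 14 libraries listed, *Hcrt* averaged 112 ± 130 CPM and *Pmch* 42.7 ± 25.4 CPM. The SD was close to the mean or above it for *Hcrt* in both classes.

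Much of this signal sat in few low-gene barcodes. In barcodes with 100 to 200 genes, 80.6% of *Hcrt* and 61.7% of *Pmch* UMIs lay in barcodes that held at least 5. Without those, *Hcrt* stood at 34.3 CPM (exact Poisson interval at 95%, counting error only, 29.8 to 39.1) and *Pmch* at 20.7 CPM (17.3 to 24.6). The same quantity in barcodes with 20 to 99 genes was 64.5 CPM (56.5 to 73.2) for *Hcrt* and 32.8 CPM (27.2 to 39.2) for *Pmch*. A count below 5 is a larger share of a small barcode than of a large one, so that these levels carry the depth of their class.

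Within kept cells, the UMIs outside rich cells stood at close levels in neurons and other cells. Without rich cells, neurons held *Hcrt* at 8.79 CPM (7.49 to 10.2) and other cells at 9.22 CPM (8.31 to 10.2). For *Pmch* the levels were 3.72 CPM (2.89 to 4.70) in neurons and 3.46 CPM (2.91 to 4.08) in other cells. The intervals overlapped for both genes. The levels in barcodes with 100 to 200 genes lay above those of non-neuronal cells in 14 of 16 libraries for *Hcrt* and in 15 of 16 for *Pmch*. The ratio of *Hcrt* to *Pmch* UMIs outside rich barcodes was 2.40 in neurons, 2.67 in other cells, 1.65 in barcodes with 100 to 200 genes and 1.97 in those with 20 to 99.

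**Figure D3:**
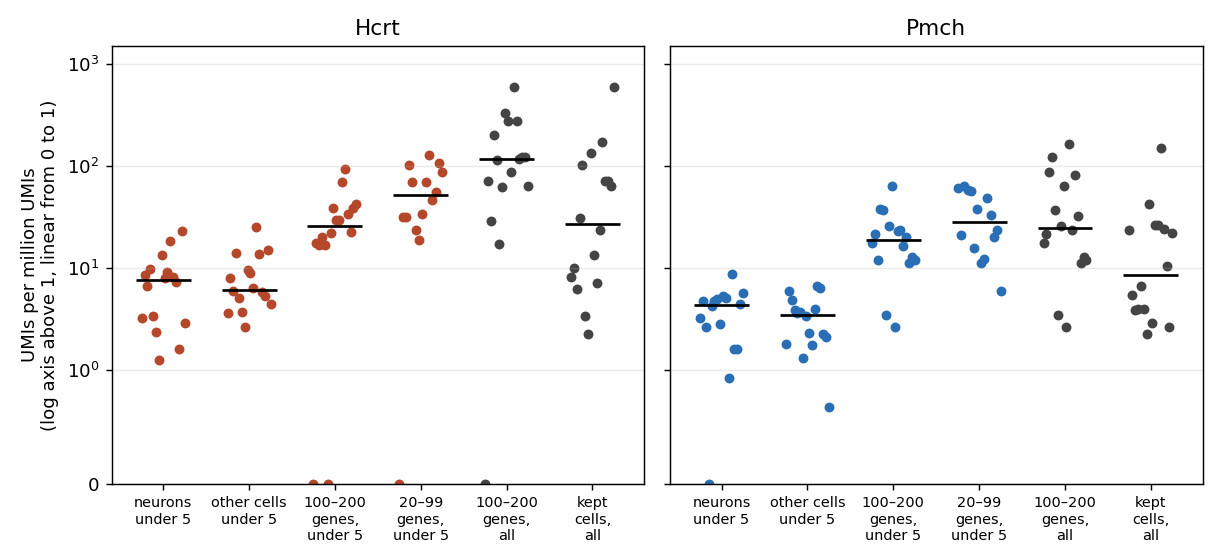
Points are libraries and lines their medians, with the CPM of *Hcrt* and *Pmch* on a y axis that is linear up to 1 and logarithmic above, for kept neurons and other kept cells below 5 UMIs, for barcodes of 100 to 200 and of 20 to 99 genes below 5 UMIs, and for all barcodes of 100 to 200 genes and all kept cells. Both genes stood higher in low-gene barcodes than in kept cells below 5 UMIs, with the level of all barcodes of 100 to 200 genes spread from 0 to 598 CPM for *Hcrt* and from 2.66 to 163 CPM for *Pmch*.

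The low-gene *Hcrt* could be divided by barcode. Of the 1569 *Hcrt* UMIs in barcodes with 200 or fewer genes, 374 (23.8%) lay in 17 barcodes at 1 base from a far richer barcode of their own library, and 106 (6.76%) lay in 8 barcodes whose sequence was that of a far richer barcode in another library. A further 648 (41.3%) lay in 35 other *Hcrt*-rich barcodes, and 441 (28.1%) lay in 355 barcodes with 1 to 4 *Hcrt* UMIs. Of the 497 *Pmch* UMIs in such barcodes, none lay in a neighbour at 1 base, 2 (0.402%) lay in a barcode shared with another library, 247 (49.7%) in 18 other *Pmch*-rich barcodes and 248 (49.9%) in 193 barcodes with 1 to 4. The part of misread barcodes, shared barcodes and free RNA in the low-gene level was not tested.

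Set beside 19 other neuropeptide genes, both members were among those with a higher level below the filter relative to kept cells. The ratio of CPM in barcodes of 100 to 200 genes to CPM in kept cells was 1.94 for *Hcrt* and 2.06 for *Pmch*, the fifth and the fourth highest of 21, after *Trh* (2.51), *Crh* (2.42) and *Oxt* (2.14). *Avp*, which encodes vasopressin, had 0.548. The kept level in these ratios leaves out barcodes with 4000 or more genes, which held 64.3% of *Hcrt* UMIs. The *Hcrt* ratio therefore depends on the upper gene limit, and ratios with those barcodes counted were not computed. *Hcrt* had the highest share of UMIs in barcodes with 4000 or more genes, before *Oxt*, the oxytocin precursor, with 57.8% and *Avp* with 23.7%. The share of UMIs of barcodes with 100 to 200 genes that lay in barcodes with at least 5 was likewise highest for *Hcrt*, next to 79.7% for *Gnrh1*, 79.6% for *Oxt* and 76.2% for *Avp*.

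Neurons held most of both transcripts among the 9 named cell types. *Hcrt* stood at 266 CPM in neurons, summed over libraries, with a median over libraries of 38.3 CPM, and the sum was 147 CPM without wild-type tamoxifen replicate 5. It stood next in microglia at 18.1 CPM, where 3 cells were *Hcrt*-rich and the rest stood at 8.05 CPM. Endothelial cells had 10.3 CPM with 2 *Hcrt*-rich cells, and the other 6 types, none with an *Hcrt*-rich cell, ran from 7.11 CPM in fibroblasts to 11.5 CPM in astrocytes. *Pmch* stood at 71.3 CPM in neurons, with a median over libraries of 13.7 CPM, and at 33.8 CPM without Esr1cKO oil replicate 3. It stood at 59.5 CPM in mural cells, where the called doublet held all but 3.42 CPM. The other 7 types had 2.19 to 5.95 CPM of *Pmch*, the lowest in polydendrocytes and the highest in astrocytes.

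Within libraries, *Hcrt* was higher in neurons than in all other kept cells by 3.77 ± 0.53 on the log2 scale (SE, 16 libraries, edgeR adjusted p = 2.97e-07). *Pmch* did not reach the count filter of this test and was fitted without it, with a difference of 3.06 ± 0.24 (edgeR adjusted p = 1.12e-23). Without the filter *Hcrt* had 3.76 ± 0.25 (edgeR adjusted p = 7.92e-30), so that the SE and p of *Pmch* cannot be set beside the filtered ones of *Hcrt*. Of all genes tested with the filter, 40.4% were called higher in neurons, and without it 6108 of 27272. The differences of both genes rested on the rich cells, and with these left out, as a description, the fitted difference was -0.27 for *Hcrt* and -0.01 for *Pmch*. Fewer cells of a type and less RNA per cell cannot be told apart in such sums.

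The share of cells with at least 1 UMI was low in every type. At least 1 *Hcrt* UMI was seen in 1.78% of neurons, whose median depth was 1490 UMIs, and in 0.634% of astrocytes, whose median depth was 482. After thinning to 500 UMIs per cell the shares were 0.751% and 0.598%. Thinning left 7326 neurons and 6359 astrocytes and dropped 1817 and 7210, so that the astrocyte share comes from the deeper cells of that type. Neurons rich in *Hcrt* and in *Pmch* had as few as 255 and 305 UMIs, so that thinning also dropped some of these. For *Pmch*, 0.787% of neurons and 0.273% of astrocytes had at least 1 UMI, and 0.287% and 0.283% after thinning. Among the cells that remained, at equal depth, the share of neurons with *Pmch* was close to that of astrocytes, which should lack the gene. Single UMIs therefore do not tell a *Pmch* neuron from background at this depth. The part of the dropped *Pmch*-rich neurons in the lower neuron share was not tested.

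Neurons were divided into 24 clusters, and neither gene had a cluster of its own. The 22 *Hcrt*-rich neurons lay in 7 clusters, with 7 in cluster 0, which *Gnrh1* led and which held 1421 neurons, 6 in cluster 6 and 3 in cluster 1. Of all neurons, 10 held 98.0% of neuronal *Gnrh1* UMIs, so that this leading gene does not describe most neurons of cluster 0. The 22 *Pmch*-rich neurons lay in 4 clusters, with 9 in cluster 6, 6 in cluster 1, 5 in cluster 0 and 2 in cluster 5. *Pmch* was the leading gene of cluster 6, which held 424 neurons with a median of 367 UMIs, and *Hcrt* led no cluster. *Hcrt* had no UMI in 5 clusters and *Pmch* had none in 7.

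By level, cluster 6 was the highest for both genes, at 1833 CPM of *Hcrt* and 1818 CPM of *Pmch*. *Hcrt* followed at 733 CPM in cluster 1, 607 in cluster 0, 454 in cluster 5 and 277 in cluster 4. It was at most 49.0 CPM elsewhere. Neurons below 5 *Hcrt* UMIs stood at 20.2, 40.8, 7.07, 5.06 and 5.79 CPM in clusters 6, 1, 0, 5 and 4. The cluster levels were not computed under the rule on shared barcodes, which kept 18 of the 22 *Hcrt*-rich neurons. *Pmch* followed at 208 CPM in cluster 1, 145 in cluster 0 and 69.4 in cluster 5, and was at most 15.3 CPM elsewhere. With both genes taken out of the clustering there were 22 clusters, *Hcrt*-rich and *Pmch*-rich neurons each lay in 7, and a cluster of 727 neurons with 9 *Hcrt*-rich ones was led by *Hcrt*.

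The genes whose levels over the 24 clusters were most like each member are given as a description, among 12597 genes and with libraries summed. For *Hcrt* the most like gene was *Pmch*, and for *Pmch* it was *Hcrt* (Pearson r = 0.734). Next to *Hcrt* came *Sema5a* (0.655), *Xk* (0.648), *Nfil3* (0.627) and *Rftn1* (0.621). Next to *Pmch* came *Fgd5* (0.650), *Crhbp* (0.649), *Entpd6* (0.636) and *2410131K14Rik* (0.619). Most clusters held no rich neuron, so that few clusters weigh on these values.

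*Hcrt*-rich neurons held *Pdyn*, the dynorphin precursor, which is known to be made in orexin neurons. Summed over the 22 neurons, *Pdyn* stood at 974 CPM and was seen in 12 of them, beside 73.5 CPM in neurons rich in neither, and it was not counted in *Pmch*-rich neurons. Over every *Hcrt*-rich barcode, kept or not, *Pdyn* was seen in 40 of 104, and it was seen in none of the 53 *Pmch*-rich ones. The 104 *Hcrt*-rich barcodes were not 104 separate cells. They included neighbours of the largest barcodes, sequences listed again in other libraries and the barcode found at like depth in several libraries. The 40 of 104 is therefore a share of barcodes and not of cells. *Lhx9*, a homeobox gene of orexin neurons, stood at 198 CPM against 20.4, and *Nptx2*, a neuronal pentraxin, at 116 CPM against 15.1. *Slc17a6*, the vesicular glutamate transporter, stood at 380 CPM in *Hcrt*-rich neurons, 225 in other neurons and 83.7 in *Pmch*-rich neurons.

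The test of these differences used the 3 libraries with at least 3 *Hcrt*-rich neurons, which were wild-type oil replicate 2, wild-type tamoxifen replicate 5 and Esr1cKO oil replicate 3, with 11 such neurons. With 3 libraries and few neurons in each, the SE and p-values of this test say little about the spread between mice. *Pdyn* was higher by 3.72 ± 0.48 on the log2 scale (SE, edgeR adjusted p = 3.91e-11), and 0.0858% of genes tested were called higher and 0.674% lower. Of the 4 fixed partner genes of orexin neurons, *Pdyn* alone passed. *Lhx9* (1.66, adjusted p = 0.466), *Nptx2* (1.75, adjusted p = 0.484) and *Slc17a6* (-0.63, adjusted p = 0.590) did not. Under the rule on shared barcodes wild-type tamoxifen replicate 5 fell below 3 such neurons, and 2 libraries with 8 neurons were left. The *Pdyn* difference was then 3.45 with an edgeR adjusted p of 0.0755, so that its call was lost. The neuron that the rule left out in that replicate had 0 *Pdyn* UMIs. The part of the lost library in this change was not tested.

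By size, the genes called higher beside *Pdyn* were led by *Rasl12* (6.36 ± 0.84, adjusted p = 1.02e-10) and *C1ql3* (3.72 ± 0.45, adjusted p = 1.22e-12), which encodes a secreted C1q-like protein. *Rasl12* rested on 11 UMIs in the 11 neurons and 10 in the other neurons of these libraries. Under the rule on shared barcodes, 1 of 8465 genes was called higher, so that *Rasl12* and *C1ql3* did not both keep their calls. The genes called lower were led by *Avp*, *Oxt* and *Cartpt*, none of which had a UMI in the 11 neurons. With 3 counts over the class as the floor, *Avp* was at least 19.1-fold lower than in other neurons, *Oxt* at least 13.1-fold and *Cartpt* at least 6.15-fold. These floors cover counting error only. Of 9143 neurons, 653 held 98.8% of neuronal *Avp* UMIs, 78 held 96.6% of *Oxt* and 392 held 86.6% of *Cartpt*. A class of 11 neurons can miss such cells by sampling alone, which was not tested. *Gad2*, which encodes a GABA-making enzyme, was likewise called lower with no UMI in the 11 *Hcrt*-rich neurons, and over all 22 it was at least 12.2-fold lower. With DESeq2 the calls of *Gad2* (adjusted p = 0.0613) and *Cartpt* (adjusted p = 0.0806) were lost. *Gad1*, the other such enzyme, was at 33.0 CPM in *Hcrt*-rich and 194 CPM in other neurons, and did not pass (-2.19, adjusted p = 0.379). With every library that had at least 1 *Hcrt*-rich neuron it was called lower (-3.47, adjusted p = 1.77e-04), where 2303 of 2311 calls were lower.

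*Pmch*-rich neurons held *Cartpt* at high levels in some cells and none in others. Summed over the 22 neurons, *Cartpt* stood at 28402 CPM, beside 521 CPM in other neurons, and *Hcrt*-rich neurons had 1 *Cartpt* UMI. It was seen in 14 of the 22, with a median of 22 UMIs in those 14 and up to 301, and it was at 0 in the other 8. The 14 came from 6 libraries and the 8 from 8 libraries. Over every *Pmch*-rich barcode *Cartpt* was seen in 26 of 53. *Tacr3*, the neurokinin B receptor gene known from *Cartpt*-expressing MCH neurons, was seen in 6 of the 14 neurons with *Cartpt* and in 0 of the 8 without it, which is given as a count because few UMIs lie behind it. Over every *Pmch*-rich barcode *Tacr3* was seen in 8 of 26 with *Cartpt* and in 2 of 27 without. The 8 neurons without *Cartpt* also held less *Pmch*, a median of 16 UMIs against 39.

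The test used the 2 libraries with at least 3 *Pmch*-rich neurons, Esr1cKO oil replicate 3 and Esr1cKO tamoxifen replicate 3, with 11 such neurons. Of these neurons, 8 came from the former. With 2 libraries, the SE and p-values of this test say little about the spread between mice. The latter library is one of those that stood apart, and without it 1 library was left and no fit was possible. *Cartpt* was higher by 5.45 ± 0.80 on the log2 scale (SE, edgeR adjusted p = 5.25e-08), and 0.0421% of genes tested were called higher and 0.126% lower. With every library that had at least 1 *Pmch*-rich neuron the *Cartpt* difference was 1.61 with an adjusted p of 0.0757, so that its call was lost there. Of the other fixed partner genes of MCH neurons, *Tacr3* (3.19, adjusted p = 0.427) and *Gad1* (0.64, adjusted p = 0.874) did not pass, and *Gad2*, with no UMI in these 11 neurons, was called lower. With DESeq2 the *Gad2* call was lost (-5.86, adjusted p = 0.999).

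Beside *Cartpt*, the genes called higher by size were *Parpbp* (6.71 ± 1.11, adjusted p = 2.73e-06), which overlaps *Pmch* on the other strand, and *Parm1* (2.88 ± 0.57, adjusted p = 4.13e-04). *Parpbp* stood at 418 CPM in the 22 *Pmch*-rich neurons, seen in 8 of them, against 3.08 CPM in other neurons, and its reads there cannot be told from those of *Pmch*. *Tac2*, *Pcp4* and *Oxt* led the genes called lower, all with no UMI in the 11 neurons. At the floor of 3 counts, which covers counting error only, they were at least 8.04-fold, 7.11-fold and 5.93-fold lower. Of all neurons, 220 held 95.7% of neuronal *Tac2* UMIs and 78 held 96.6% of *Oxt*. A class of 11 neurons can miss such cells by sampling alone, which was not tested.

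The genes that process and receive the peptides were less distinct. *Pcsk2*, a prohormone convertase, was higher in *Pmch*-rich neurons by 2.53 ± 0.40 (adjusted p = 7.73e-07), at 2176 CPM and seen in 14 of 22 against 247 CPM in other neurons, but with every library that had at least 1 such neuron the difference was 0.65 (adjusted p = 0.299). In *Hcrt*-rich neurons *Pcsk2* stood at 462 CPM and did not pass (-0.24, adjusted p = 0.860). *Pcsk1*, *Cpe* and *Pam*, which cut, trim and amidate peptides, passed in neither class, though *Cpe* was called lower in *Hcrt*-rich neurons with every library that had at least 1 (-1.43, adjusted p = 0.00532). The receptor genes had too few UMIs in the rich neurons to be compared, with 0, 1 and 1 UMI of *Hcrtr1*, *Hcrtr2* and *Mchr1* in *Hcrt*-rich neurons and 0 of each in *Pmch*-rich neurons, and they stood at 2.49, 14.2 and 6.38 CPM in other neurons. At this depth 1 UMI in *Hcrt*-rich neurons is 16.5 CPM, so that a level like that of other neurons could not be told from a lower or higher one.

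**Figure D4:**
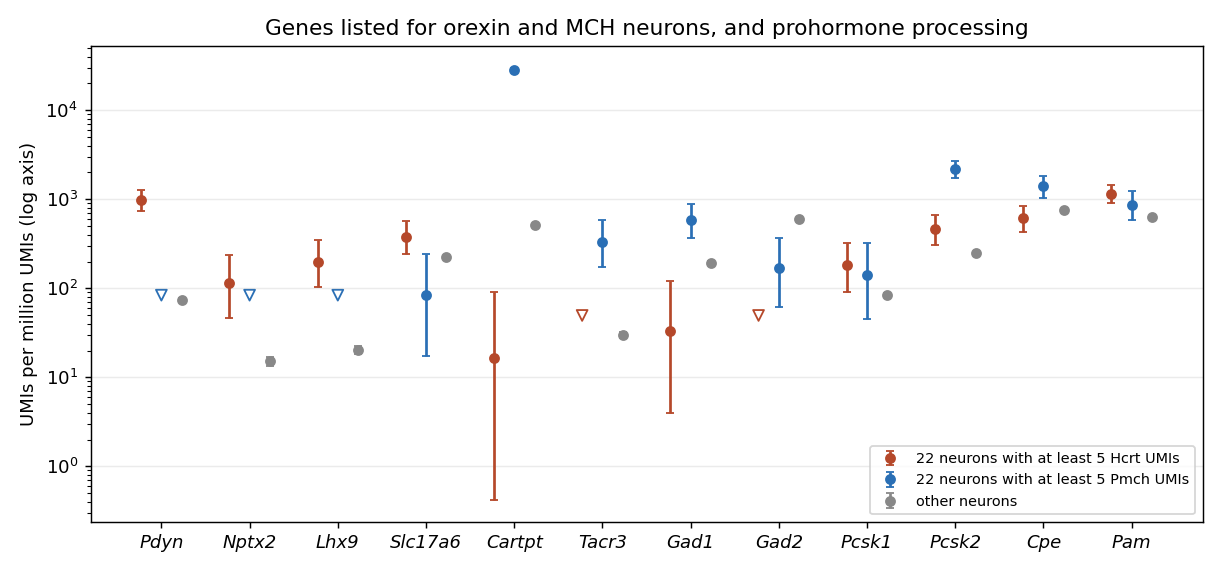
Points give the CPM of partner and processing genes on a logarithmic axis, summed over 22 *Hcrt*-rich neurons, 22 *Pmch*-rich neurons and the other kept neurons, with bars for the 95% Poisson interval of counting error and open triangles at the 3-count floor for genes with no UMI. *Pdyn* stood at 974 CPM in *Hcrt*-rich and 73.5 in other neurons, and *Cartpt* at 28402 CPM in *Pmch*-rich and 521 in other neurons.

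In the comparison of treatments and genotypes, *Hcrt* in neurons varied more within groups than between them. Neurons of oil-treated wild-type mice had 16.3, 333 and 9.23 CPM of *Hcrt*, and those of tamoxifen-treated wild-type mice had 6.64, 367, 8.05, 275 and 2244 CPM. Oil-treated Esr1cKO mice had 55.4, 1.25, 460 and 211 CPM, and tamoxifen-treated Esr1cKO mice had 12.6, 2.38, 21.2 and 194 CPM. All 4 groups overlapped. The 275, 211 and 194 CPM of wild-type tamoxifen replicate 4, Esr1cKO oil replicate 4 and Esr1cKO tamoxifen replicate 4 leaned on the barcode listed in 4 libraries, and under the rule on shared barcodes they were 16.01, 8.81 and 21.9 CPM. Tamoxifen-treated Esr1cKO mice then ran from 2.38 to 21.9 CPM and tamoxifen-treated wild-type mice from 6.67 to 2262 CPM, so that these groups still overlapped.

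The group means were 119 ± 185 CPM (SD, n = 3) and 580 ± 944 CPM (n = 5) for wild-type mice given oil and tamoxifen, and 182 ± 206 and 57.6 ± 91.3 CPM (n = 4 each) for Esr1cKO mice given oil and tamoxifen. The log2 difference of tamoxifen against oil in *Hcrt* was 2.28 ± 1.61 (SE) in wild-type mice (edgeR adjusted p = 1.0) and -1.65 ± 1.51 in Esr1cKO mice (adjusted p = 1.0), and the difference between genotypes in this response was -3.93 ± 2.21 (adjusted p = 0.932). Esr1cKO against wild-type was 0.63 ± 1.57 under oil (adjusted p = 0.999) and -3.30 ± 1.54 under tamoxifen (adjusted p = 1.0). The wild-type difference in *Hcrt* was 0.43 without wild-type tamoxifen replicate 5 and 5.53 without wild-type oil replicate 2. Under the rule on shared barcodes the 5 *Hcrt* differences were, in the order above, 2.07, -3.02, -5.09, 0.092 and -5.00 (edgeR adjusted p = 0.941 for the interaction and at least 0.999 for the others). With all cell types summed and no upper limit on genes per cell, which returned the largest *Hcrt* barcodes, the genotype difference under tamoxifen was 1.13, the opposite direction. This setting changed both the cells summed and the limit, so that the part of each cannot be told apart.

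*Pmch* showed the same kind of spread. Neurons of oil-treated wild-type mice had 63.7, 13.7 and 97.4 CPM of *Pmch*, and those of tamoxifen-treated wild-type mice had 2.66, 111, 5.37, 13.6 and 81.8 CPM. Oil-treated Esr1cKO mice had 4.08, 5.02, 414 and 27.6 CPM, and tamoxifen-treated Esr1cKO mice had 4.72, 4.75, 60.0 and 4.41 CPM. Esr1cKO oil replicate 3 was the highest of all, and the groups overlapped.

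The group means of *Pmch* were 58.3 ± 42.1 CPM (n = 3) and 43.0 ± 50.2 CPM (n = 5) in wild-type mice given oil and tamoxifen, and 113 ± 200.99 and 18.5 ± 27.7 CPM (n = 4 each) in Esr1cKO mice. The log2 difference of tamoxifen against oil was -0.49 ± 1.28 (SE) in wild-type and -2.28 ± 1.24 in Esr1cKO mice, and the interaction was -1.79 ± 1.79 (edgeR adjusted p = 1.0, 1.0 and 0.944). Esr1cKO against wild-type was 1.0 ± 1.29 under oil and -0.79 ± 1.24 under tamoxifen, and neither passed. Without both libraries that stood apart, the *Pmch* difference in Esr1cKO mice was -4.70 (adjusted p = 0.965) and the wild-type difference was 0.31, the opposite direction. Without Esr1cKO oil replicate 3 the Esr1cKO difference was 0.82.

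**Figure D5:**
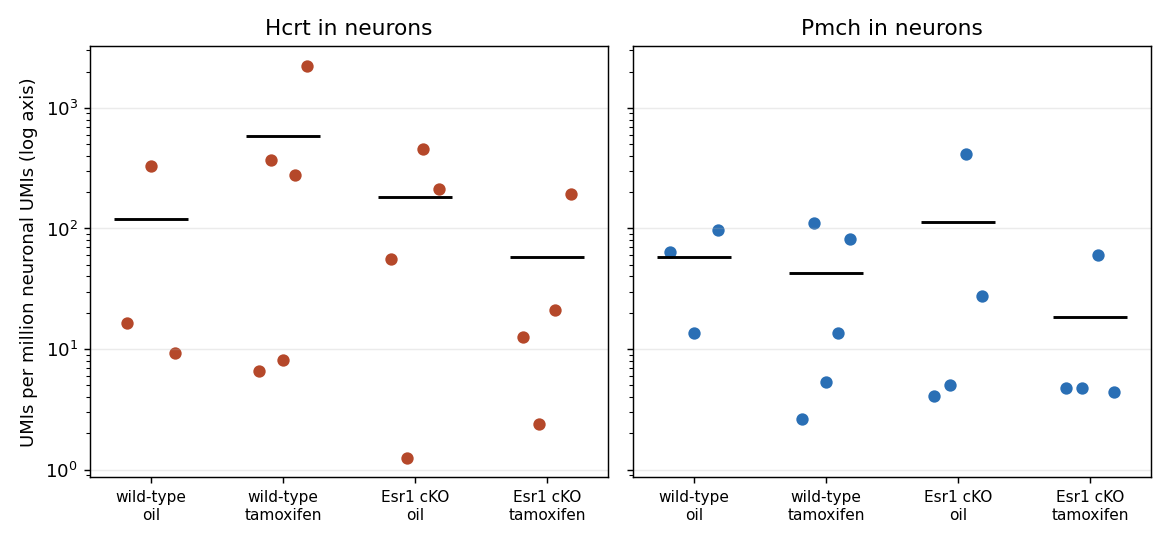
Points are libraries and lines group means of *Hcrt* and *Pmch* in neurons, in CPM on a logarithmic axis, for the 4 groups of treatment and genotype. The points of every group overlap those of the others, from 1.25 to 2244 CPM for *Hcrt* and from 2.66 to 414 CPM for *Pmch*.

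Among the 12443 genes of this test, edgeR called 0% for tamoxifen against oil in either genotype, for the interaction and for genotype under oil, and 0.00804% (1 gene) for genotype under tamoxifen. At an unadjusted p under 0.05 these comparisons had 413 genes for tamoxifen in wild-type mice, 383 in Esr1cKO mice, 647 for the interaction, 572 for genotype under oil and 442 under tamoxifen, and DESeq2 called 1, 0, 0, 1 and 3 genes. The biological coefficient of variation between libraries was 1.37 for *Hcrt* and 1.17 for *Pmch*, beside a median of 0.189 over all genes. The p-values of these group comparisons measure the spread between mice, and no difference of either gene passed adjustment over all genes tested. The lowest unadjusted edgeR p of both genes was 0.0468, for *Hcrt* by genotype under tamoxifen. How large a difference could be detected at this spread was not computed.

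The number of rich neurons and the amount per rich neuron were also taken apart. *Hcrt*-rich neurons numbered 1, 4 and 0 in oil-treated and 0, 2, 0, 2 and 3 in tamoxifen-treated wild-type mice, and 1, 0, 4 and 2 in oil-treated and 1, 0, 1 and 1 in tamoxifen-treated Esr1cKO mice. As a share of neurons they were 0.358% ± 0.390 (SD, n = 3), 0.225% ± 0.222 (n = 5), 0.256% ± 0.222 (n = 4) and 0.128% ± 0.0948 (n = 4). *Pmch*-rich neurons numbered 1, 1 and 2, then 0, 2, 0, 1 and 2, then 1, 0, 8 and 1, then 0, 0, 3 and 0 in the same order of groups. Their shares were 0.316% ± 0.131, 0.164% ± 0.171, 0.329% ± 0.438 and 0.104% ± 0.208.

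None of the 8 differences in share passed a two-sided exact permutation test over mice, with p from 0.25 to 0.971 and adjusted p from 0.816 to 0.971, where the smallest possible p ran from 0.00794 to 0.0286. Under the rule on shared barcodes 18 of the 22 *Hcrt*-rich neurons and all 22 *Pmch*-rich ones remained, the *Hcrt*-rich shares were 0.375% ± 0.415, 0.178% ± 0.184, 0.216% ± 0.206 and 0.0714% ± 0.0825, and the exact permutation p of the *Hcrt* differences ran from 0.2 to 0.571. *Hcrt* took 0.472% and 8.72% of the UMIs of *Hcrt*-rich neurons in the 2 oil-treated wild-type mice that had any, 6.08%, 8.87% and 12.8% in 3 tamoxifen-treated wild-type mice, 2.54%, 11.3% and 4.72% in 3 oil-treated Esr1cKO mice and 0.842%, 0.0626% and 20.7% in 3 tamoxifen-treated ones. *Pmch* took 10.6%, 1.68% and 11.3% in oil-treated and 11.9%, 4.84% and 5.62% in tamoxifen-treated wild-type mice, and 0.173%, 4.84% and 0.890% in oil-treated and 1.352% in 1 tamoxifen-treated Esr1cKO mouse. These designs could not reach p below 0.1, and the exact permutation p ran from 0.2 to 1. Of the *Hcrt* percents, 8.87%, 12.8%, 4.72% and 20.7% include the barcode listed in 4 libraries. That barcode was the only *Hcrt*-rich neuron behind the 20.7%, so that these values are not independent across mice.

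Over all kept cells the level of each gene per library followed its rich cells. *Hcrt* ran from 2.28 CPM in Esr1cKO oil replicate 2 to 598 CPM in wild-type tamoxifen replicate 5, and *Pmch* from 2.28 CPM in Esr1cKO oil replicate 2 to 152 CPM in Esr1cKO oil replicate 3. In 8 libraries a single cell held most of the *Hcrt* of kept cells, and in 8 libraries the same held for *Pmch*. Under the rule on shared barcodes *Hcrt* fell from 70.9 to 8.22 CPM in wild-type tamoxifen replicate 4, from 71.1 to 6.61 in Esr1cKO oil replicate 4 and from 63.6 to 21.3 in Esr1cKO tamoxifen replicate 4. In the fourth library of that set, wild-type tamoxifen replicate 5, it was 598 before and 606 after.

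Libraries with more *Hcrt* tended to hold more *Pmch*, which did not pass after adjustment over the 3 relations tested. Across 16 libraries, Pearson's r of log2 CPM in kept cells was 0.51 (permutation p = 0.0420, adjusted p = 0.126) and Spearman's rho 0.509 (p = 0.0464, adjusted p = 0.0696), and r was 0.442 without the 2 libraries farthest from the median *Hcrt* level. Centred on the group mean, r was 0.518 (permutation adjusted p = 0.113), and centred on fours of library numbers it was 0.600 (adjusted p = 0.0426). Centred on the sets of libraries that share barcodes, which was added after seeing the data, r was 0.574 (adjusted p = 0.0207). These permutations moved centred values freely across all 16 libraries and did not allow for the centring, so that their p-values can be too small. The level in barcodes of 100 to 200 genes against that in kept cells had r = 0.418 (permutation p = 0.102, adjusted p = 0.140) and rho = 0.565 (p = 0.0264, adjusted p = 0.0696) for *Hcrt*, and r = 0.385 (p = 0.140, adjusted p = 0.140) and rho = 0.376 (p = 0.151, adjusted p = 0.151) for *Pmch*. Without the 2 farthest libraries these r were 0.559 and 0.216, and centred on the group mean they were 0.411 and 0.320 (permutation adjusted p = 0.174 and 0.227). Centred on the barcode-sharing sets they were 0.595 and 0.571 (adjusted p = 0.0207 each), with the same limit on p.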

How the data were processed

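Per library, the authors deposited counts of UMIs per gene symbol and barcode, not normalized and not pooled over mice. The submitters' processing notes name STAR 2.6, mm10 and Seurat, while the counting program, annotation and use of strand are not given in the sources used here. Barcodes that fail the study's cell filter were still listed, and the filter was applied here. Cells were clustered as in the study's methods (Seurat 5.3.0, 2000 variable genes, 30 CCA dimensions, resolution 0.05; neurons with 500 and 0.7). Clusters took the type with most markers over a log2 fold change of 1, and Scrublet (scanpy 1.11.5) called 476 kept cells (0.855%) doublets, which stayed in. Kept cells summed to 1.72e+06 to 5.46e+06 UMIs per library, with a median depth of 563 to 819 UMIs per cell, so that intervals and floors cover counting error only. UMIs summed per library were tested with edgeR 4.0.16 (quasi-likelihood, TMM, filterByExpr, Benjamini-Hochberg over all genes tested), all groups in 1 fit or with library as a block within libraries. A gene that chose the cells was not tested in them. Shares were tested by exact permutation over mice and correlations with 100000 permutations. DESeq2 1.42.0, other cell filters and leaving out libraries were alternatives. Scripts were tested on simulated data. Named genes were receptors, processing genes, partner genes of both neuron types, other neuropeptide genes, the 5 most like genes over clusters, and the 3 genes with the largest change each way in the partner tests. *Hcrt*, *Pmch* and these lists were chosen with earlier results of these data known. Groups came from the labels, which give no dissection day, and replicate numbers are in accession order. Neurons rich in *Hcrt* and in *Pmch* could not be tested against each other, since 1 library held 3 of each.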

Additional observations from a re-analysis of the deposited data

Results flagged for a closer look

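In 8 of 24 groups of library values 1 library lay far from the others of its group, judged by its gap to the next value over the range. The limit used gives about 1 in 20 by chance only where values are normally distributed. Most values here rest on few rich cells, and the same libraries recur across measures, so that the number flagged cannot be set against chance. For *Hcrt*, wild-type tamoxifen replicate 5 stood at 598 CPM in kept cells, with the others of its group at 6.27 to 133, and at 2244 CPM in neurons, with the others at 6.64 to 367. Esr1cKO tamoxifen replicate 4 stood at 194 CPM of *Hcrt* in neurons, with the others at 2.38 to 21.2. The only *Hcrt*-rich neuron of that library carried the barcode listed in 4 libraries, and under the rule on shared barcodes the library stood at 21.9 CPM.

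For *Pmch*, Esr1cKO oil replicate 3 stood at 152 CPM in kept cells (others 2.28 to 10.4) and at 414 CPM in neurons (others 4.08 to 27.6). Esr1cKO tamoxifen replicate 3 stood at 26.3 CPM in kept cells (others 2.66 to 5.42) and at 60.0 CPM in neurons (others 4.41 to 4.75), and *Pmch*-rich neurons were 0.416% of its neurons where the others had 0. The last library is one of those that stood apart from the rest.

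Barcodes with 4000 or more genes, which no comparison of groups used under the cell filter, held 13433 *Hcrt* UMIs.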

How the results depend on the processing

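No alternative brought a group difference of either gene in neurons past an adjusted p of 0.05, and the lowest was 0.524, for the *Hcrt* interaction. The directions below turned, and the cause was not tested. No paired analysis was possible because the labels give neither shared replicate numbers nor days, and the blocks used below are guesses at batches from library numbers and shared barcodes. Depth limits both genes through the few rich cells per library. With the barcode-sharing sets as a block (added after seeing the data), tamoxifen against oil in wild-type mice was -0.58 for *Hcrt*, genotype under oil -0.52 for *Hcrt* and -0.53 for *Pmch*, and for *Pmch* the interaction was 0.56 and genotype under tamoxifen 0.029. *Pmch* under tamoxifen in wild-type mice was 0.11 with fours of library numbers as a block, 0.016 over all kept cells, 2.18 in neurons above 500 genes, 0.028 over all cells with no upper gene limit and 0.31 without both libraries that stood apart. Genotype under tamoxifen was 1.13 over all cells with no upper gene limit and 0.97 over every barcode for *Hcrt*, and 0.51 in neurons above 500 genes for *Pmch*. Without rich cells, neurons against others was -0.27 for *Hcrt* and -0.0068 for *Pmch*.

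In percentage points of neurons, the *Hcrt*-rich share differed by 0.0746 for tamoxifen in wild-type mice and 0.105 for genotype under oil without replicate 2 of the oil-treated wild-type and tamoxifen-treated Esr1cKO groups, and over every barcode by 0.0254 and 0.0197 for genotype under oil and tamoxifen. The *Pmch*-rich share differed for genotype under oil by -0.146 at 10 UMIs, -0.112 at 20, -0.0485 without replicate 2 of both groups and -0.00823 over every barcode. The *Hcrt* percent of UMIs differed for tamoxifen in Esr1cKO mice by -0.411 with medians and -4.23 under the rule on shared barcodes, and for genotype under tamoxifen by 11.4 at 10 UMIs and 1.51 without both libraries that stood apart, where the *Pmch* percent differed by 1.31 for tamoxifen in wild-type mice.

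Centred on fours of library numbers, r of *Hcrt* and *Pmch* was 0.600, and centred on barcode-sharing sets it was 0.574. The low-gene relation gave -0.0377 in CPM for *Hcrt*, and within sets 0.595 for *Hcrt* and 0.571 for *Pmch*. Without both libraries that stood apart, Spearman's rho was 0.679 for *Hcrt* and *Pmch* and 0.618 for low-gene *Hcrt* (permutation adjusted p = 0.0259 and 0.0318). Under the rule on shared barcodes these were 0.485 and 0.538 (adjusted p = 0.0876 each). With barcodes of 20 to 99 genes, rho of low-gene *Hcrt* was 0.675 (adjusted p = 0.0205) and that of *Pmch* 0.0549 (adjusted p = 0.856). Genes called in *Hcrt*-rich neurons numbered 62, against 10 with DESeq2 and 2311 (2303 lower) with every library that had a rich neuron. With 2 libraries left, they numbered 12 without replicate 2 of both groups and 13 under the rule on shared barcodes. In *Pmch*-rich neurons they numbered 16, against 9 with DESeq2 and 2697 (2692 lower) with every such library, and with 10 UMIs or without the libraries that stood apart 1 library was left. In *Hcrt*-rich neurons *Pcsk2* turned to 0.39 with DESeq2 and 0.58 under the rule, and *Pam* to 0.033 at 10 UMIs, 0.52 with DESeq2 and 0.14 without replicate 2. In *Pmch*-rich neurons *Pcsk1* turned to -0.71 with every such library, and *Cpe* to -0.012 without doublets, -1.07 with every such library and -0.023 under the rule.

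Leaving out 1 library at a time, differences in neurons ran from 0.43 to 5.53 for *Hcrt* and -1.22 to 0.29 for *Pmch* (tamoxifen in wild-type mice), -3.62 to -0.67 and -4.66 to 0.82 (in Esr1cKO mice), -7.18 to -2.08 and -4.19 to 1.28 (interaction), -0.35 to 3.89 and -2.11 to 1.80 (genotype under oil), and -5.27 to -1.45 and -3.14 to -0.04 (under tamoxifen). The *Hcrt*-rich share ran from -0.312 to 0.0746 for tamoxifen in wild-type mice and from -0.282 to 0.105 for genotype under oil, and the *Pmch*-rich share from -0.202 to 0.122 for genotype under oil.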
